A study of Saccharomyces cerevisiae with 9 samples.

Results

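The 10 genes described here make, import or control thiamine in *Saccharomyces cerevisiae*: *THI7* (YLR237W), *THI72* (YOR192C) and *PHO3* (YBR092C) for uptake, *THI4* (YGR144W), *THI20* (YOL055C), *THI21* (YPL258C), *THI22* (YPR121W) and *THI6* (YPL214C) for synthesis, and *THI2* (YBR240C) and *THI3* (YDL080C) for regulation. They were selected on their names from the 7127 genes of the count files, with the fold changes between subphases in these same libraries already known, so their levels and differences are given as a description, and the counts of calls among them are no independent test. All 10 had counts in each of the 9 libraries and all 10 passed the filter on low counts in each of the 3 comparisons. The mRNA-seq libraries came from early, mid and late log cultures, each subphase being sampled in 3 biological replicates. They are numbered in the labels and called A to C here in that order. Cells in YPD, the usual glucose-rich medium, were kept at 30 °C and harvested at an OD600 of 0.2 to 0.3 (early log), 0.5 to 0.7 (mid log) or 0.8 to 1.0 (late log). These ranges are from the mRNA-seq methods of the paper. Its results section gives higher upper limits for early and mid log, so those limits are uncertain. Every culture was the same MATa strain, called wild type, which carries the alleles ade2-1, ura3-1 and trp1-1 together with the double allele of leu2-3 and leu2-112, his3-11 and can1-100, and a tagged Pol I subunit gene written as RPA135-(HA)3-(His)7::TRP1. No untreated control or thiamine treatment is part of the design, and bulk mRNA cannot tell fewer expressing cells from less mRNA per cell.

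Thiamine diphosphate is the cofactor of pyruvate decarboxylase, transketolase and the dehydrogenases that feed the citric acid cycle. Yeast makes it by joining a thiazole ring, built by Thi4, to a pyrimidine ring, built by the Thi5 family and phosphorylated by Thi20 and Thi21, or takes thiamine up through Thi7 after the periplasmic phosphatase Pho3 has removed phosphate from it. The Thi2, Thi3 and Pdc2 proteins activate most of these genes when thiamine is scarce, and rich medium supplies thiamine from yeast extract.

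The 10 genes lie on 6 chromosomes of the R64 genome, and none overlaps another annotated gene. The upstream sequences that the results return to are those of *PHO3* (chromosome II, 427698 to 429101, minus strand), of its neighbour *PHO5*, of the pair *THI20* (chromosome XV, 224420 to 226075, minus strand) and *THI21* (chromosome XVI, 53498 to 55153, minus strand), and of *THI73* and *PET18*, other genes of the pathway. A search of the 600 bases before each start codon for words shared among the 10 genes and *PET18*, *THI73* and *PDC5*, the 3 other pathway genes with the largest rises in late log, was made after their values were seen and found the 11-base word TAAGGGAAACT before *PHO3*, *THI73* and *PET18*. On either strand it is present in 7 of 5999 windows of that length (0.117%), the other 4 belonging to *ERG6*, *HTL1*, *PAM17* and *SSL1*, the last of which shares its intergenic region with *THI73*. By its systematic name *HTL1* (YCR020W-B) lies beside *PET18* (YCR020C), so their windows may hold the same site. The stretches are shown with the word in capitals, each on the strand that reads it in this form.
*PHO3*, chrII:429295-429354, minus strand: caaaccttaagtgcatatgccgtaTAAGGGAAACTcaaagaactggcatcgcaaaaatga
*THI73*, chrXII:159669-159728, plus strand: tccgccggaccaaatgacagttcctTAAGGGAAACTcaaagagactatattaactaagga
*PET18*, chrIII:155017-155076, plus strand: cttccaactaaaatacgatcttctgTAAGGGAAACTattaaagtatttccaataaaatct
The word began 229 bases before the start codon of *PHO3*, on the strand of the gene, and its far end was 199 bases before *THI73* and 393 bases before *PET18*, on the opposite strand and, for *PET18*, inside the coding region of *MAK31*. Between *PHO3* and *THI73* the match extended to 17 bases, TAAGGGAAACTCAAAGA, which contains the shorter word and was found in 3 windows (0.05%), those of *PHO3*, *THI73* and *SSL1*. A second word of 17 bases, GTATATGTATAGCTTCT, was found in 2 windows (0.0333%), those of *THI20* and *THI21*, and is in capitals in both.
*THI20*, chrXV:226261-226320, minus strand: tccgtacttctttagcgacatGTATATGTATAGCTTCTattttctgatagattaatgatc
*THI21*, chrXVI:55335-55394, minus strand: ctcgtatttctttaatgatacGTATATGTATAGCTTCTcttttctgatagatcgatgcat
*PHO5* is shown for contrast with *PHO3*, with CACGTG, the core of the site known for the phosphate regulator Pho4, in capitals.
*PHO5*, chrII:431172-431231, minus strand: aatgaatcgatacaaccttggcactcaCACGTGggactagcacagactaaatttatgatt
CACGTG was present in 434 of the 5999 windows (7.23%), among them those of *PHO5*, *PHO11*, *PHO12* and *THI74*, and in the window of none of the 10 genes. The words of 17 bases were the longest shared by any pair in the search, but other pairs shared shorter words that were as rare. *THI7* with *THI72* shared a word of 14 bases, and *THI21* with *THI22* and *THI7* with *THI3* words of 12 bases, each in 2 windows. *THI21* and *PET18* shared a word of 11 bases in 3 windows, while that of *THI3* and *PHO3* was in 878. Rarity among the windows thus does not set the words shown apart. A match is a description of the letters only.

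The 9 libraries held between 22830165 and 34358259 counts on genes. Early log C and mid log A stood apart from the other libraries of their subphase. According to the paper, early log C was at the upper limit of the early OD600 range and mid log A at the lower limit of the mid range. The letters used in the paper were taken to follow the replicate numbers of the labels. Early log C is thus not a typical early culture, and values against it alone carry that limit. By the study's sequencing table, run 1 held early log A with early log B, run 2 the whole of mid log, and run 3 the whole of late log plus early log C, so mid log and run 2 cannot be told apart. The MATa genes *MFA1*, *MFA2* and *STE2* were at 19.6 to 993 CPM and the MATalpha genes *MF(ALPHA)1*, *MF(ALPHA)2* and *STE3* at 0.155 to 3.03 CPM. CPM are counts divided by library size after TMM scaling, which sets the libraries to a common level on the assumption that most genes do not change.

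Among the 10 genes *PHO3* had the highest transcript level and *THI72* the lowest. Per kilobase of coding length and averaged over the 9 libraries, *PHO3* was at 419 CPM, above 92.7% of the 5647 coding genes, and *THI7* at 105 CPM, above 80.3%. *THI6*, *THI20* and *THI3* followed at 35.4, 24.7 and 16.6 CPM per kilobase, and the remaining 5 genes were below 10 CPM per kilobase. *THI4*, which encodes the thiazole synthase, was at 4.04 CPM per kilobase, above 17.9% of coding genes, and *THI72* at 2.81, above 12.2%. In early log *THI3* (19.4 ± 1.74 CPM per kilobase, SD, n = 3) stood next to *THI6* (17.4 ± 3.77), and *THI2* (4.65 ± 0.113) next to *THI21* (4.64 ± 1.11), and both pairs overlapped within 1 SD. Mid log left clear steps at *PHO3* (277 ± 26.9) and *THI7* (42.0 ± 3.68 CPM per kilobase), while every neighbouring pair below *THI6* (28.9 ± 2.60) overlapped within 1 SD. *THI6* was above *THI3* (13.3 ± 12.0) on average, but in mid log A *THI3* was at 27.2 and *THI6* at 26.3 CPM per kilobase. In late log *THI6* (60 ± 8.70) and *THI20* (49.5 ± 6.34) overlapped within 1 SD and both were above *THI3* (17 ± 1.5).

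**Figure D1:**
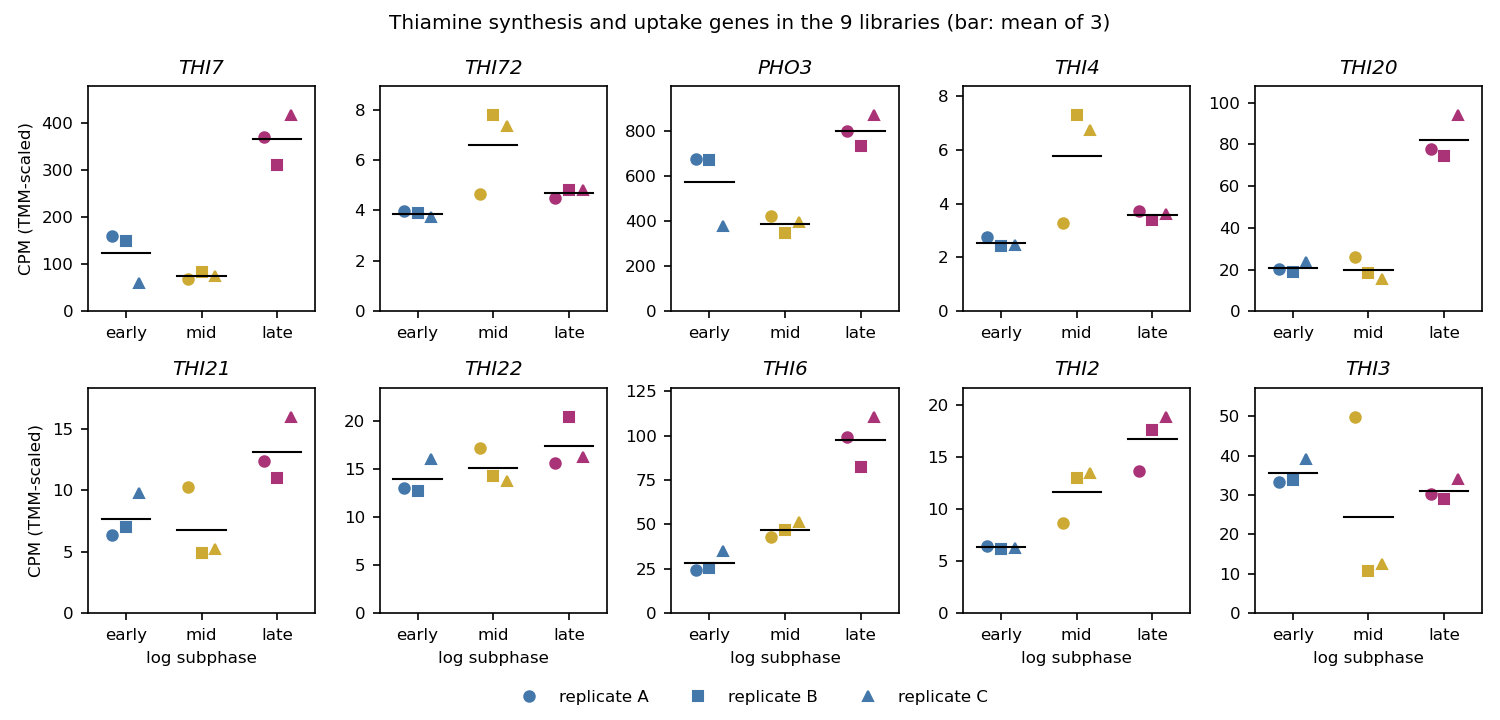
CPM after TMM scaling (vertical axis, from 0) of the 10 genes in the 3 log subphases, 1 panel a gene, with a symbol for each replicate and a bar at the mean of 3. Late log stands above the other subphases in THI7, THI20 and THI6, mid log B and C stand above the rest in THI4 and THI72, and mid log A stands far above mid log B and C in THI3.

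*THI7* encodes the main thiamine transporter of the plasma membrane (chromosome XII, 612367 to 614163, plus strand). It was at 160, 150 and 59.5 CPM in early log A, B and C, at 69.5, 82.5 and 74.2 CPM in mid log and at 370, 311 and 416 CPM in late log. All late log libraries lay above all others, and early log C lay below mid log. The fitted log2 fold change was 2.14 ± 0.20 (SE) for late over mid log, 1.52 ± 0.35 for late over early log and -0.69 ± 0.38 for mid over early log. Early log C, the early library that shares run 3 with late log, gave a late over early log2 difference of 2.61 when used alone.

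*THI72*, a close relative of *THI7* that transports thiamine with low affinity (chromosome XV, 698768 to 700567, minus strand), was more than an order of magnitude lower. It had 3.97, 3.91 and 3.74 CPM in early log, 4.65, 7.77 and 7.36 CPM in mid log and 4.49, 4.81 and 4.81 CPM in late log. Mid log A lay with the late libraries and mid log B and C above all others. The log2 fold changes of *THI72* were 0.78 ± 0.31 for mid over early, -0.62 ± 0.30 for late over mid and 0.23 ± 0.17 for late over early log, of which the first turned to -0.07 and the last to -0.37 when scaled by library totals. *NRT1*, the third gene of this family, encodes a nicotinamide riboside transporter. Of the CPM per kilobase of the 3 genes, *THI7* held 82.5% ± 8.80 in early log, 65.6% ± 1.63 in mid log and 93.4% ± 1.43 in late log (SD, n = 3), and its share in early log C was 72.3%, against 87.8% and 87.3% in early log A and B. The share of *THI72* was 3.00%, 5.67% and 1.22% in early, mid and late log, and that of *NRT1* 14.5%, 28.7% and 5.38%. Shares are taken within a library and do not depend on the scaling between libraries. The coding sequence of *THI7* was 84.1% identical to that of *THI72*, with a longest identical stretch of 74 bases, and reads within such a stretch match both genes.

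*PHO3* encodes a constitutive acid phosphatase of the periplasm. It was at 674, 670 and 379 CPM in early log A, B and C, at 422, 348 and 396 CPM in mid log and at 800, 733 and 868 CPM in late log. Late log was the highest subphase without overlap, and early log C lay with mid log and apart from early log A and B. The log2 fold change of *PHO3* was 0.92 ± 0.17 for late over mid, 0.43 ± 0.22 for late over early and -0.55 ± 0.28 for mid over early log. Against early log C alone the late libraries were 1.08 higher on the log2 scale, and without early log C the late over early log2 fold change was 0.20. Scaled by library totals, late over early log for *PHO3* was -0.16.

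*PHO5*, the repressible acid phosphatase induced when phosphate is short, ends 446 bases before *PHO3* begins, on the same strand, and its coding sequence was 86.5% identical to that of *PHO3*. *PHO5* was at 161, 168 and 55.3 CPM in early log, at 433, 516 and 588 CPM in mid log and at 126, 117 and 116 CPM in late log. Mid log was the highest subphase for *PHO5* and the lowest on average for *PHO3*. The ratio of *PHO3* to *PHO5* within a library was 4.17, 3.99 and 6.84 in early log, 0.975, 0.674 and 0.672 in mid log and 6.37, 6.28 and 7.49 in late log. The pair shared identical stretches of up to 98 bases, which reads of that length or shorter cannot tell apart. *PHO11* and *PHO12*, other repressible acid phosphatases, went with *PHO5*: all 3 rose in mid over early log, by 2.01 to 3.23 on the log2 scale, and all 3 fell in late over mid log, with log2 fold changes of -2.24 to -3.21 (edgeR quasi-likelihood test, adjusted p of 0.0135 to 0.0147 and of 0.00623 to 0.0144). *PHO11* and *PHO12* are near copies of each other. Reads that match both were not counted, so the level of each is uncertain and may be too low. The early log C value of *PHO5* was the lowest of all 9, and mid log is run 2 throughout.

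**Figure D2:**
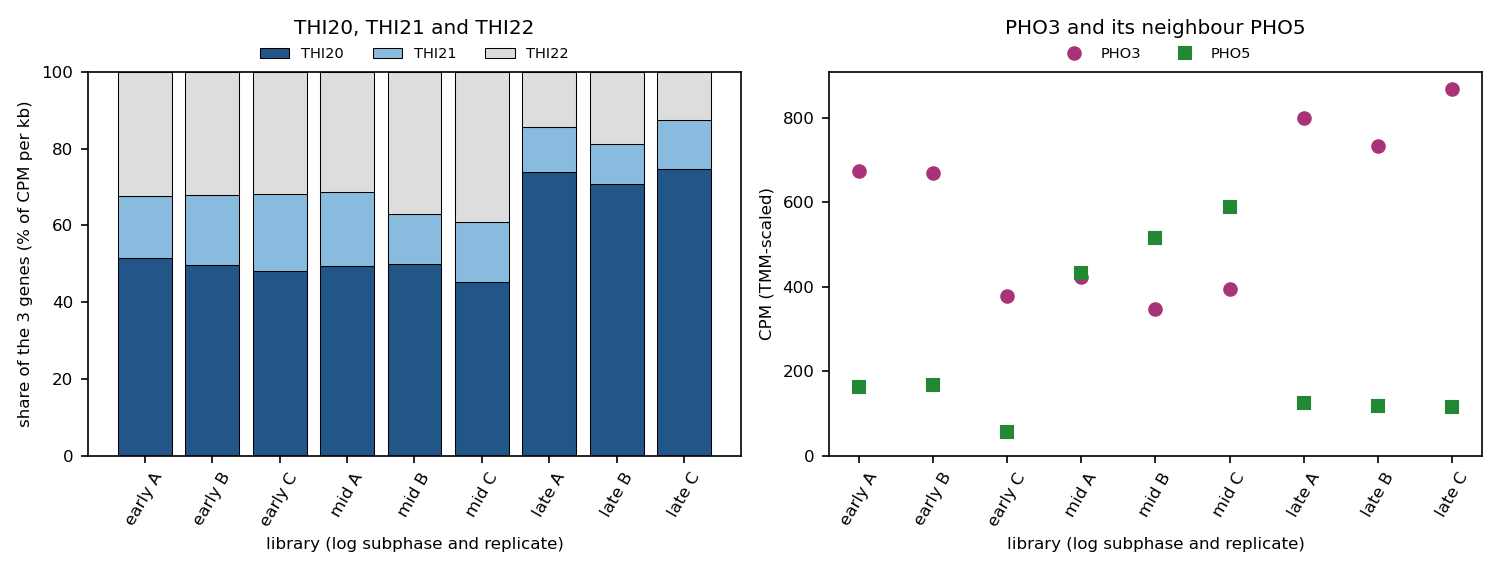
Left, the share of THI20, THI21 and THI22 in their summed CPM per kilobase (vertical axis, percent) in each of the 9 libraries. Right, CPM after TMM scaling of PHO3 (circles) and PHO5 (squares) in the same libraries. THI20 takes 70.8% to 74.8% in late log, against 45.3% to 51.6% in the other 6 libraries, and PHO5 is above PHO3 in the 3 mid log libraries only.

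*THI4* encodes the enzyme of the thiazole ring, which gives up sulfur from its own cysteine, and its transcript is known to be abundant in yeast starved of thiamine (chromosome VII, 780399 to 781379, plus strand). Here it had 70 to 148 counts a library. It was at 2.76, 2.43 and 2.45 CPM in early log, 3.29, 7.28 and 6.72 CPM in mid log and 3.74, 3.40 and 3.60 CPM in late log. Mid log B and C were the highest of the 9 libraries, and mid log A lay below late log. The log2 fold changes of *THI4* were 1.19 ± 0.38 for mid over early, -0.83 ± 0.37 for late over mid and 0.44 ± 0.18 for late over early log, the last of which was -0.16 when scaled by library totals. Without mid log A the first was 1.5 and the second -1.14.

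*THI20* and *THI21* encode kinases that phosphorylate the pyrimidine part, and *THI22* a similar protein for which no such activity is known (chromosome XVI, 778583 to 780301, plus strand). *THI20* was at 20.2, 18.8 and 23.4 CPM in early log, 26.2, 18.6 and 15.3 CPM in mid log and 77.7, 74.3 and 94.0 CPM in late log. The late log libraries were all above the others, while early and mid log overlapped. The log2 fold change of *THI20* was 1.92 ± 0.23 for late over mid, 1.92 ± 0.14 for late over early and -0.04 ± 0.29 for mid over early log.

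*THI21* was at 6.31, 6.97 and 9.76 CPM in early log, 10.3, 4.87 and 5.25 CPM in mid log and 12.3, 11.0 and 15.9 CPM in late log. Late log was above the other subphases without overlap, by a log2 fold change of 0.83 ± 0.33 over mid and 0.71 ± 0.23 over early log, which was 0.11 when scaled by library totals. *THI22* was at 13.0, 12.7 and 16.0 CPM in early log, 17.2, 14.3 and 13.7 CPM in mid log and 15.6, 20.4 and 16.3 CPM in late log, and its subphases overlapped in every pair. Its log2 fold change was 0.27 ± 0.18 for late over early log, against -0.33 when scaled by library totals.

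*THI20* thus took a larger share of its family in late log. Of the summed CPM per kilobase of the 3 genes it held 49.8% ± 1.73 in early log, 48.2% ± 2.54 in mid log and 73.2% ± 2.11 in late log, while *THI22* held 32% ± 0.260, 35.8% ± 4.07 and 15.2% ± 3.21 and *THI21* 18.2% ± 1.96, 16.0% ± 3.18 and 11.6% ± 1.12 (SD, n = 3). *THI20* and *THI21* share the 17-base upstream word shown above at almost the same place, 224 and 220 bases before their start codons, and 82.1% of their coding bases. Their longest identical coding stretch was 26 bases, as was that of *THI20* and *THI22*, and among the 10 genes only *THI7*, *THI72* and *PHO3* had an identical stretch of 50 bases or more elsewhere in the genome. The longest was 106 bases, between *THI72* and *NRT1*.

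*THI6* encodes the enzyme that joins the thiazole and pyrimidine parts and also phosphorylates the thiazole for reuse (chromosome XVI, 148569 to 150191, minus strand). It was at 24.1, 25.2 and 35.2 CPM in early log, 42.7, 47.1 and 51.1 CPM in mid log and 99.4, 82.4 and 110 CPM in late log. The 3 subphases did not overlap and were ordered early, mid, late. The log2 fold change of *THI6* was 1.73 ± 0.19 for late over early and 0.92 ± 0.19 for late over mid log, and it was 0.75 ± 0.26 for mid over early log, which turned to -0.08 when scaled by library totals.

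*THI2* and *THI3* encode the regulators, a zinc finger activator and a decarboxylase-like protein that responds to thiamine diphosphate. *THI2* (chromosome II, 700490 to 701842, minus strand) was at 6.45, 6.14 and 6.29 CPM in early log, 8.66, 12.9 and 13.4 CPM in mid log and 13.7, 17.5 and 18.8 CPM in late log. Each subphase lay above the one before without overlap. Its log2 fold changes were 0.90 ± 0.29 for mid over early, 0.38 ± 0.28 for late over mid and 1.35 ± 0.17 for late over early log, and scaled by library totals mid over early was 0.06. Without mid log A late over mid log was 0.17.

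*THI3* (chromosome IV, 310642 to 312471, minus strand) differed most between replicates. It was at 33.4, 33.9 and 39.2 CPM in early log, 49.8, 10.8 and 12.6 CPM in mid log and 30.2, 28.9 and 34.2 CPM in late log. Mid log A was the highest of all 9 libraries, and mid log B and C were the lowest. The log2 fold change for mid over early log was -0.53 ± 0.58 with all libraries and -1.56 without mid log A. For late over mid log it was 0.26 ± 0.54 and 1.23 without mid log A, and for late over early log it was -0.25 ± 0.13.

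**Figure D3:**
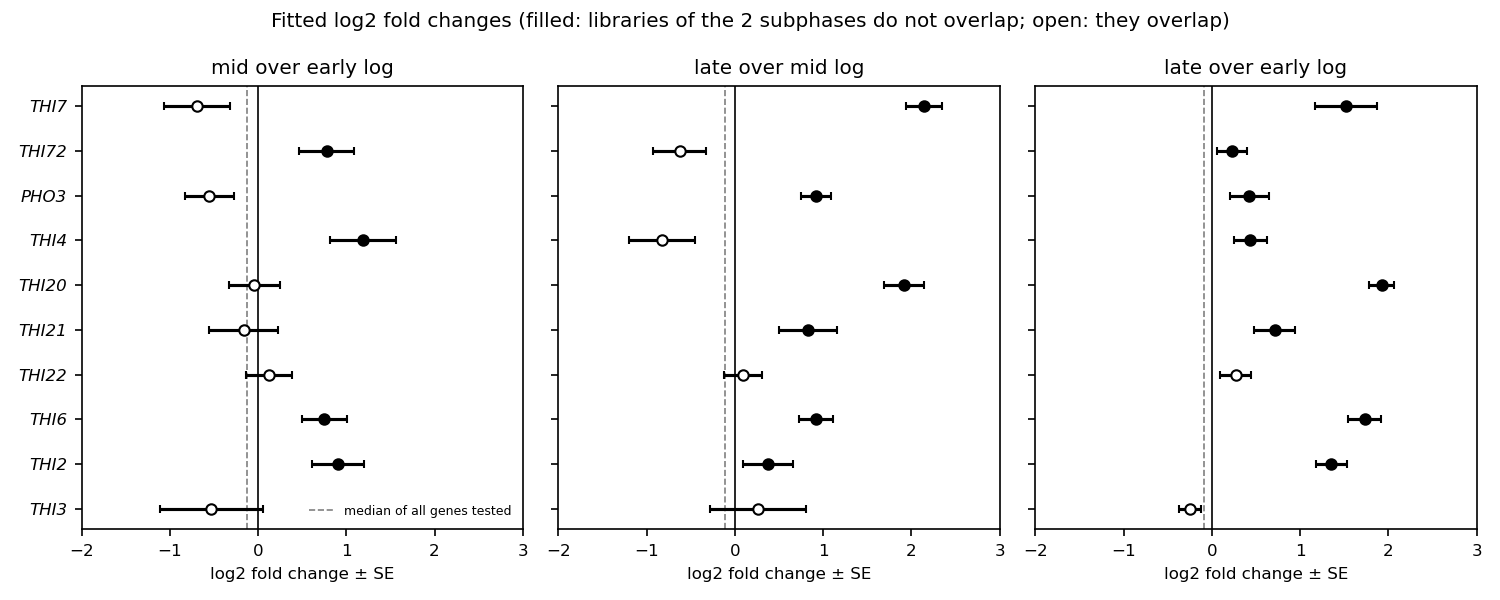
Fitted log2 fold changes ± SE (horizontal axis) of the 10 genes in the 3 comparisons of subphases, the later over the earlier, with filled points where the libraries of the 2 subphases do not overlap in TMM-scaled CPM and a dashed line at the median of all genes tested (-0.12, -0.11 and -0.08 from left to right). THI7 and THI20 are above 1.5 in both comparisons with late log, and 4, 6 and 8 of the 10 points are filled.

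Over the 10 genes, 5 passed the adjusted threshold of 0.05 in late over early log, all higher in late log (*THI7*, *THI20*, *THI21*, *THI6* and *THI2*), where 72.1% of the 5954 genes tested passed in either direction and 33.0% passed as higher. In mid over early log 3 passed, all higher in mid log (*THI4*, *THI6* and *THI2*), where 44.9% of 5951 genes passed and 20.7% passed as higher. Between late and mid log 2 passed, *THI7* and *THI20*, both higher in late log, where 27 of 5865 genes (0.460%) passed and 0.307% passed as higher. The libraries of the 2 subphases did not overlap, with the later subphase higher, for 8 of the 10 genes in late over early, 4 in mid over early and 6 in late over mid log, against 37.9%, 27.2% and 18.9% of all genes. Overlap was judged on TMM-scaled CPM only and was not counted under library totals. Of those 8 genes, *THI4*, *THI72* and *PHO3* had negative late over early fold changes with library totals. Their median fitted fold change on the log2 scale was 0.58 in late over early, 0.04 in mid over early and 0.60 in late over mid log, beside -0.08, -0.12 and -0.11 over all genes tested. Nothing is read from these counts, since the genes were chosen with them known. The 3 comparisons share libraries.

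These counts depended on single libraries, most of all where mid log was involved. In late over early log *THI21* did not pass when early log A, early log B, late log A or late log C was left out. A term for the run, in a fit of all 9 libraries, set run 3 against runs 1 and 2 together. Late over early log in that fit rests on early log C alone among the early libraries. For *THI7* it gave a log2 fold change of 2.62, against 2.61 for early log C used alone. When the fit held a term for the run, *THI21* did not pass (log2 fold change 0.42) while *PHO3* passed (1.08, edgeR adjusted p = 0.0212), which gave 5 of the 10 where 24.1% of all genes passed. Without mid log A, 8 of the 10 genes passed in late over mid log, where 56.1% of all genes did, with *THI7*, *THI20*, *THI21*, *THI6*, *THI3* and *PHO3* higher and *THI4* and *THI72* lower, and 5 in mid over early log, where 76.4% did, with *THI4*, *THI72*, *THI6* and *THI2* higher and *THI3* lower. Leaving out early log C and mid log A together, 7 passed in mid over early log, where 89.6% of all genes did, with the same 4 higher and *THI7*, *THI3* and *PHO3* lower. When A or B was left out of early log, or B or C out of mid log, 0 of the 10 passed in mid over early log (edgeR, 0 or 1 at an unadjusted p below 0.05), as did 0 of all genes tested. When B or C was left out of mid log, or any library out of late log, 0 of the 10 passed in late over mid log (edgeR, 4 or 5 unadjusted), and 0 to 3 of all genes did. With every library kept, DESeq2 called 4 of the 10 in each of these comparisons. Within run 3, late log lay above early log C by 1.80 on the log2 scale in *THI20*, 1.46 in *THI6*, 1.39 in *THI2*, 0.40 in *THI21* and 0.11 in *THI22*, and *THI3* differed by -0.34, a value with a single early library and no test.

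The scaling of the libraries moved all fold changes together. TMM factors were 1.36 to 1.47 for early, 0.7 to 1.01 for mid and 0.878 to 0.902 for late log libraries, and the 10 most abundant genes took at most 15.7% of the counts of an early log library, 20.1% to 26.2% of a mid log library and 18.2% to 19.1% of a late log library. With library totals in place of TMM the median log2 fold change of all genes was -0.89 for mid over early, 0.13 for late over mid and -0.68 for late over early log, and the share of calls that were higher in the later subphase was 9.22%, 80.6% and 20.3%, against 46.1%, 66.7% and 45.7% with TMM. Under library totals 4 of the 10 genes still passed as higher in late over early log, *THI7*, *THI20*, *THI6* and *THI2*, while *THI3* passed as lower and *THI72*, *PHO3*, *THI4* and *THI22* had negative fold changes. In mid over early log the only genes of the 10 to pass under library totals were *THI7* and *PHO3*, both lower. Relative to the median of all genes, 9 of the 10 lay above it in late over early log under each of TMM, DESeq2 size factors and library totals. In mid over early log 6, 6 and 7 did. A change of scaling moves the genes and the median together, so these counts had to be nearly alike and are no support. The genes were also chosen with their fold changes known, and as many of all genes lie above the median as below it.

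**Figure D4:**
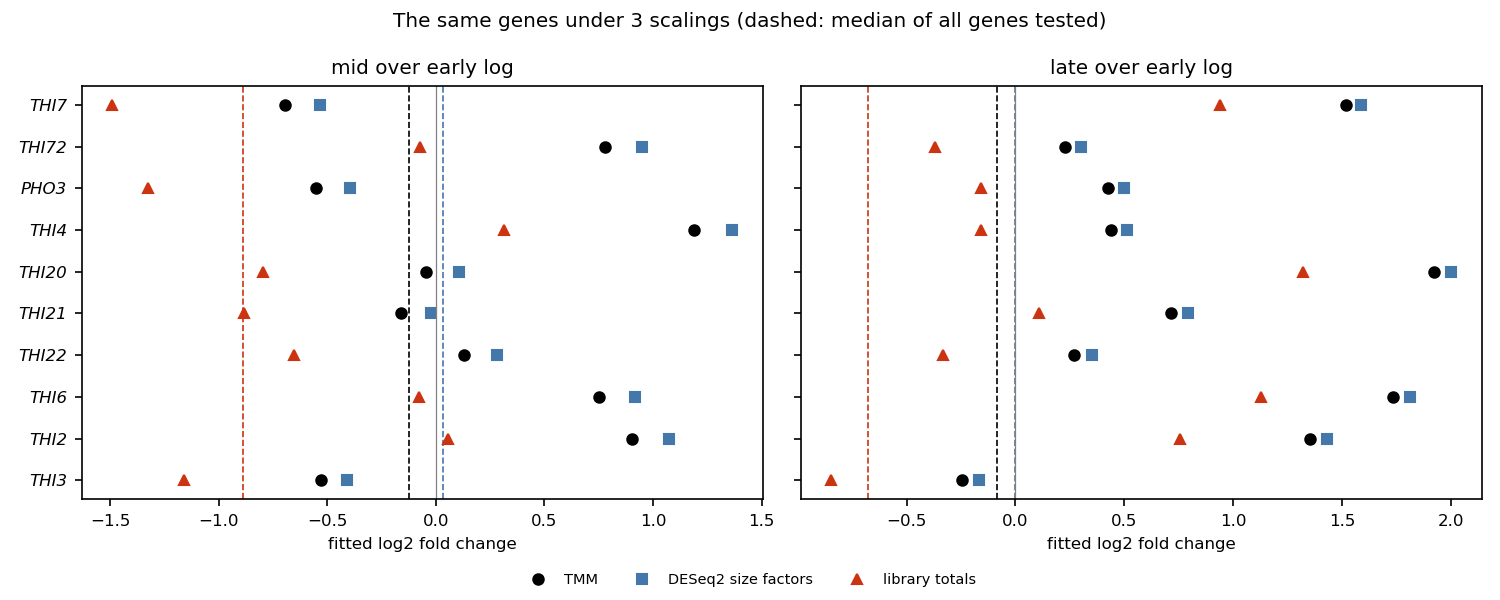
Fitted log2 fold changes (horizontal axis) of the 10 genes for mid over early and late over early log under TMM, DESeq2 size factors and library totals, with dashed lines at the median of all genes tested under each. Library totals place every gene lower than TMM does, by about the distance between the dashed lines, and THI7, THI20, THI6 and THI2 stay above 0.7 in late over early log under all 3.

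Of 31 other genes around thiamine, in 5 lists, 15 rose and 2 fell in late over early log, where 33.0% of all genes tested rose and 39.2% fell. In mid over early log 13 rose and 2 fell, against 20.7% and 24.2% of all genes, while late over mid log gave 1 that rose and 3 that fell, against 0.307% and 0.153%. The balance depended on the scaling: with library totals 8 of the 31 rose and 8 fell in late over early log (14.1% and 55.3% of all genes), 5 rose and 6 fell in mid over early log (3.63% and 35.7%), and 5 rose and 4 fell in late over mid log (6.22% and 1.5%). Among 7 genes for phosphorylation, transport and regulation, *PET18* and *THI73* had the largest rises in late over early log. *PET18*, whose product resembles proteins of thiamine metabolism, was at 6.24, 6.14 and 6.78 CPM in early log, 4.33, 7.42 and 8.24 CPM in mid log and 24.2, 23.4 and 27.3 CPM in late log. Late log was 1.91 ± 0.14 higher on the log2 scale than early log (edgeR, adjusted p = 5.27e-05), and 1.88 higher than early log C alone. *THI73*, a putative permease, was at 2.97, 3.66 and 3.86 CPM in early log, 3.32, 6.88 and 5.44 CPM in mid log and 13.2, 10.3 and 15.5 CPM in late log, and the late over early log2 fold change was 1.84 ± 0.21 (edgeR, adjusted p = 0.000268). Of the genes outside the pathway with the word TAAGGGAAACT upstream, *PAM17* had a late over early log2 fold change of 1.86, *SSL1* of -0.32, *ERG6* of -0.94 and *HTL1* of -2.85, so the genes with the word did not share a direction.

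*PDC2*, which encodes the partner of Thi2 and Thi3 in activating the pathway, ran the other way. It was at 36.8, 33.9 and 31.5 CPM in early log, 16.7, 6.64 and 6.82 CPM in mid log and 10.3, 8.59 and 11.2 CPM in late log. It fell in mid over early log (log2 fold change -1.75 ± 0.41, edgeR adjusted p = 0.0175) and in late over early log (-1.82 ± 0.15, adjusted p = 6.58e-05). *TPC1*, the mitochondrial carrier of thiamine diphosphate, rose by 1.06 in late over early log (adjusted p = 0.000415) and by 1.17 in mid over early log (adjusted p = 0.0288). *NRT1* rose by 0.85 in mid over early log (adjusted p = 0.0233), which was 0.04 with library totals (adjusted p = 0.895), and did not pass in the other comparisons. *THI80*, which encodes the kinase that makes thiamine diphosphate, had a log2 fold change of 0.21 ± 0.15 in late over early log, and *THI74*, for a mitochondrial transporter, 0.19 ± 0.15.

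The pyrimidine part is built by *THI5*, *THI11*, *THI12* and *THI13*, of which *THI11* and *THI13* passed and the other two did not. *THI13* rose by 1.21 in late over early log (adjusted p = 0.00347) and by 1.52 in mid over early log (adjusted p = 0.0307), and *THI11* by 0.74 and 1.06 (adjusted p of 0.0125 and 0.0477). With library totals neither passed as higher, and 2 genes of the family passed as lower in each of these comparisons. *THI5* had 11 to 33 counts a library and log2 fold changes of -0.12 and -0.29, and *THI12* had -0.05 and -0.33. *THI5* was 98.1% to 99.3% identical to the other 3 over the coding sequence. Reads that match several copies were not counted, so the count of each copy is uncertain and may be too low. Beside *THI5* and *THI12* lie *SNZ3* with *SNO3* and *SNZ2* with *SNO2*, genes of pyridoxine synthesis that are near copies of each other, with the same limit on their counts. In late over early log *SNZ3* rose by 1.51 and *SNZ2* by 1.19 (adjusted p of 0.000503 and 0.000854), and *SNO2* by 0.83 (adjusted p = 0.0161). *SNO1*, a related gene on chromosome XIII, was at 2.92, 3.40 and 5.28 CPM in early log, 0.318, 0.787 and 0.539 CPM in mid log and 5.14, 5.92 and 5.41 CPM in late log, lowest in run 2 throughout. It fell in mid over early log (log2 fold change -2.83, adjusted p = 0.0135) and rose by 3.21 in late over mid log (adjusted p = 0.0299).

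Among 11 genes for enzymes that use thiamine diphosphate, 7 rose in late over early log and 5 in mid over early log, where 33.0% and 20.7% of all genes rose. With library totals 3 rose in each, where 14.1% and 3.63% of all genes did. The largest rise in late over early log was that of *PDC5*, the minor pyruvate decarboxylase gene known to respond to lack of thiamine. *PDC5* was at 71.2, 81.8 and 24.4 CPM in early log, 46.4, 91.7 and 89.9 CPM in mid log and 252, 178 and 260 CPM in late log. All late log libraries were above all others, and the late over early log2 fold change was 1.91 ± 0.42 (edgeR, adjusted p = 0.005), or 3.21 against early log C alone. Early log C was the lowest of the 9 libraries in *PDC5*, as it was in *THI7*. *TKL2*, a minor transketolase gene, rose by 1.45 in late over early log, *PDA1*, for a pyruvate dehydrogenase subunit, by 1.1, and *PDC1*, the main pyruvate decarboxylase gene, by 1.09 (adjusted p of 0.000307, 0.000189 and 0.00377). In mid over early log *PDC1*, *TKL2*, *PDA1* and *PDB1* rose by 1.82, 1.76, 1.59 and 1.41 (adjusted p of 0.0135 to 0.0165). *PDC6* and *ILV2*, for a minor pyruvate decarboxylase and acetolactate synthase, had 0.02 and 0.46 in late over early log and did not pass. The fit with the run as a term takes its late over early values from early log C alone among the early libraries. For *PDC5* that value was 3.23, against 3.21 for early log C used alone. With the sequencing run as a term, *PET18*, *THI73*, *PDC5*, *PDC2* and *SNZ3* still passed in late over early log, and the other genes named here as passing in that comparison did not. In mid over early log 0 of the 31 genes passed by edgeR when A or B was left out of early log or B or C out of mid log, with 13 or 14 at an unadjusted p below 0.05, and 0 of all genes passed. With every library kept, edgeR called 15 of them and DESeq2 called 17, and DESeq2 was not run with a library left out. With library totals the late over early values were 1.31 for *PET18*, 1.24 for *THI73*, 1.33 for *PDC5*, -2.41 for *PDC2* and 0.46 for *TPC1*. Of the named pathway genes that passed, 4 of 14 lost the call in late over early log with library totals, *PDC1* (0.49, edgeR adjusted p = 0.0978), *THI13* (0.61, 0.0645), *SNO2* (0.24, 0.413) and *THI11* (0.15, 0.524), and 7 of 14 did in mid over early log, *TPC1*, *NRT1*, *THI11*, *THI13*, *SNZ3*, *TKL2* and *PHO5*.

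**Figure D5:**
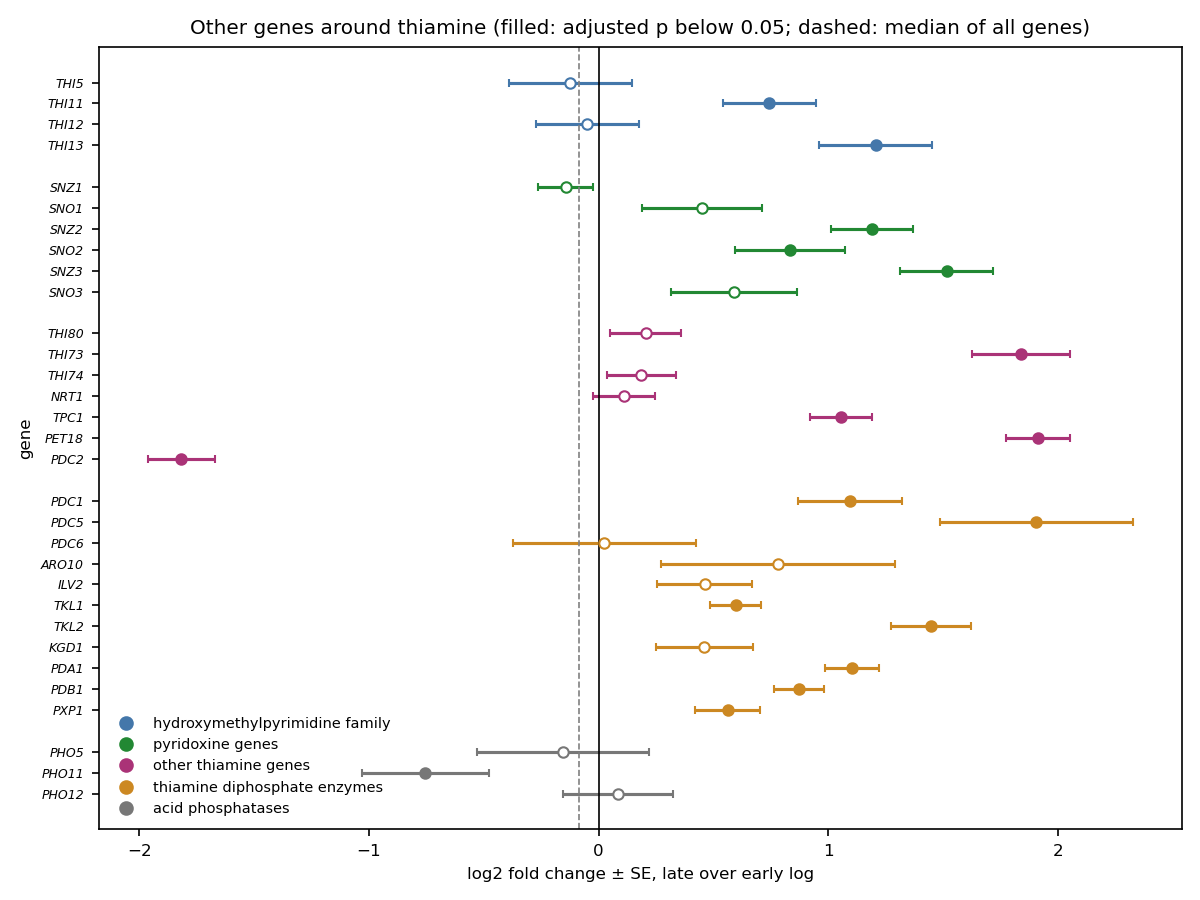
Log2 fold changes ± SE of late over early log (horizontal axis) for the 31 other genes around thiamine, coloured by list and filled where the edgeR adjusted p was below 0.05, with a dashed line at the median of all genes tested (-0.08). PET18, PDC5 and THI73 lie near 1.9, PDC2 lies at -1.82, and 15 filled points are to the right of 0 and 2 to the left, against 8 and 8 with library totals.

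The profiles nearest to those of *THI4* and *PHO3* were looked for among 4100 and 4099 genes, by the root mean square difference between mean-centred log2 CPM over the 9 libraries. For *THI4*, whose own profile had a root mean square of 0.541 about its mean, they were *PRS2* (0.0959), *HOL1* (0.0997), *ALG7* (0.101), *EMP70* (0.118) and *TOS1* (0.122). For *PHO3*, with 0.490 about its mean, they were *RPL34B* (0.143), *RPL40B* (0.167), *RPL36A* (0.187), *SDD2* (0.2) and *EMC5* (0.203). Genes whose log2 CPM averaged below 3 were left out of the search, among them *THI72*, *THI73* and the whole Thi5 family. The absence of such genes from the nearest profiles was fixed beforehand, and nothing is read from it. None of the listed genes that stayed in the search is among the nearest profiles named here. The points of each profile share libraries, runs and scaling.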

How the data were processed

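Counts per gene were deposited by the authors, who aligned single-end, strand-directional, poly(A)-selected reads to R64-1-1 with STAR and counted them with HTSeq (0.12.3 in the submitters' processing notes). The strand setting of the counting is not given in the sources used here. The 5 lines that name no gene were left out. Reads matching more than 1 place (7.46% to 11.2% of each library) were not counted on genes.

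A separate fit of edgeR 4.0.16 in R 4.3.3 was made for every pair of subphases, on the 6 libraries of that pair (filterByExpr, TMM, quasi-likelihood test, two-sided, Benjamini-Hochberg adjustment over all genes tested, threshold 0.05). Fitted log2 fold changes use a prior count of 0.125 and standard errors come from the F statistic. DESeq2 1.42.0 was an alternative. Steps were tested on simulated data. Sequences, coordinates and coding lengths are those of RefSeq R64 and copies of the listed genes were searched with blastn 2.17.0 and, for the 10 genes, by exact matches of 50 bases.

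The 10 genes and the lists were chosen with earlier results of these data known. The named genes were the 10, the Thi5 family, *PHO5*, in each pathway list at most 4 genes past the threshold per comparison by size of change, and the 5 profiles nearest to *THI4* and to *PHO3*. Other listed genes, such as *THI80*, *THI74*, *PDC6* and *ILV2*, and the upstream words were chosen after their values were seen. The design gives separate cultures. Replicate numbers share no stated litter, batch or day.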

Additional observations from a re-analysis of the deposited data

How the results depend on the processing

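Of 420 fold changes of the 10 genes under the alternatives, 388 moved by less than their spread and 31 by more, beside the reversal of *THI6*. The sign changed in 17, of which 7 were under library totals (*THI6*, *THI72* and *THI22* in mid over early log and *THI72*, *THI22*, *THI4* and *PHO3* in late over early log) and 10 under other settings, in *THI20*, *THI21*, *THI22* and *THI3*, where the reported log2 fold change was at most 0.26 in size. Among fold changes that had passed the threshold the sign changed only in *THI6*, in mid over early log under library totals (-0.0769). Of 444 calls of other named genes, 117 lost the threshold. With the sequencing run as a term, late over early log rests on early log C alone among the early libraries. Genes past the threshold numbered 4294 in late over early log and 1452 with the sequencing run as a term, and 3828 to 4838 with a library left out. In late over mid log they numbered 27, against 453 with library totals, 341 with DESeq2's test, 223 with all 9 libraries in 1 fit and 1 with the replicate block, and 0 to 3318 with a library left out. In mid over early log they numbered 2674, against 5360 without early log C and mid log A (chosen after seeing the data), and 0 to 4592 with a library left out. For the listed pathway genes, the run as a term gave 6 calls in place of 17 in late over early log, library totals, DESeq2's test and the block gave 9, 8 and 1 in late over mid log in place of 4, and leaving out both libraries gave 23 in place of 15 in mid over early log. Leaving out 1 library gave 14 to 22, 0 to 21 and 0 to 18 in late over early, late over mid and mid over early log. For the 10 genes, late over mid log gave 4 calls under library totals, DESeq2's test and all 9 libraries, and mid over early log gave 1 with no filter and 7 without early log C and mid log A. Leaving out 1 library gave 4 to 7, 0 to 8 and 0 to 5 calls. The 0 calls came without early log A or B or mid log B or C in mid over early log (edgeR, 0 or 1 gene at an unadjusted p below 0.05) and without mid log B, mid log C or any late log library in late over mid log (4 or 5 genes unadjusted). With the replicate block 0 of the 10 passed in mid over early and in late over mid log by edgeR (3 and 5 unadjusted; DESeq2 without the block called 4 and 4). Deviations of same-numbered libraries correlated at -0.318 to 0.351. With 3 libraries a subphase this cannot show whether a number marks a shared culture or day. *THI4* had as few as 70 counts, where depth limits precision.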
